A study of Mus musculus with 83 samples.

Results

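The miR-290 to miR-295 cluster, the miRNA cluster that gives mouse embryonic stem cells (ESCs) their most typical miRNAs, was followed through small RNA libraries of ESCs that lose the maintenance DNA methyltransferase DNMT1 and of primordial germ cells (PGCs). Its members were taken by name and position as the 7 miRNA features Mir290, Mir291a, Mir292, Mir291b, Mir293, Mir294 and Mir295, which lie on chromosome 7 among 32101 features, of which 1573 are miRNAs. Levels are given as RPM, the reads of a feature scaled to a library of 1000000 reads, obtained from deposited values per kilobase of feature. The ESCs carried loxP-flanked Dnmt1 alleles and an inducible Cre, and the study's methods describe the Cre as switched on with tamoxifen in serum and LIF, with or without feeder cells. The study's methods name 1 such line, of C57BL/6 origin, whereas the labels tag the ESCs as E14. The series calls its replicates biological, but nothing ties them to separate lines, so p-values measure the spread between samples of that line.

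The libraries of total small RNA were from control cells and from Dnmt1 KO cells at days 1, 3, 6, 9, 11 and 25, with 3 libraries for each day and genotype and 36 in all. RNA pulled down with the small RNA binding protein AGO2 was sequenced from 4 control and 4 Dnmt1 KO libraries, which the paper places at day 9, while the labels give no day. A further 2 libraries, 1 per genotype, are labelled "none" in place of AGO2. In all AGO2 and "none" libraries, the genotype tag is the opposite of the title, and the title was followed. Germ cells were represented by 1 library each of female and male PGCs at E13.5 and E14.5 embryos, labelled C57BL/6 and sorted by an Oct4-GFP transgene. A second set of 33 libraries with an R1 suffix repeats the ESC groups of days 1 to 11 and 3 of the PGC groups.

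A miRNA is cut from a hairpin in a longer transcript and loaded as a strand of about the length of the reads into an Argonaute protein. There, its seed (bases 2 to 8) pairs with messenger RNAs. The hairpins of the cluster are processed from 1 transcript that is active in pluripotent cells and silent in most differentiated ones, and their AAGUGC-type seeds are known for promoting rapid G1 to S transition and reprogramming. The study asked about transposon-derived small RNAs. For the cluster, its design allows the comparison of genotypes by day, of days within the controls, and of AGO2-bound with total RNA.

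The cluster spans 2216 bases at chr7:3218627-3220842 on the forward strand of NCBIM37, the build of the files. Each member is annotated as a miRNA gene, and no span overlaps a protein-coding gene. The RefSeq hairpin equals the span for all members except Mir291a, whose hairpin was not used here. Within 10 kb, the only other feature was Nlrp12, a protein-coding gene on the reverse strand that overlaps no member and whose 3′ end lies 669 bases further on. It was listed at 0 to 7.68 RPM over the ESC time course and did not pass the filter on low values. The sequences below are from the RefSeq table of GRCm38.p6, and each was found within its member's span on NCBIM37. They show the 3p arms available there, whose seeds define the family, and the 5p arms of Mir291a and Mir291b, which decide how far these members can be told apart. Of Mir292, miR-292a-3p is named only. Seeds are in capitals.
miR-290a-3p: aAAGUGCCgccuaguuuuaagccc
miR-291a-3p: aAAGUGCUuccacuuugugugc
miR-291b-3p: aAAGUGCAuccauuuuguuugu
miR-293-3p: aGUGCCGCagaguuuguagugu
miR-294-3p: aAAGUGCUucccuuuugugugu
miR-295-3p: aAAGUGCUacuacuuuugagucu
miR-291a-5p: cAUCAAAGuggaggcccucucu
miR-291b-5p: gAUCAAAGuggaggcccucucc

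The 3p arms of Mir291a, Mir294 and Mir295 share the seed AAGUGCU, which 2 other mature miRNAs of the table, miR-302b-3p and miR-302d-3p, carry as well. Mir290 and Mir291b differ from it in the last base of the seed, and miR-293-3p has the seed GUGCCGC. The 5p arms of Mir291a and Mir291b differ, counted from the 5′ end of the first, by C1G and U22C, and the 2 hairpins share a stretch of 20 bases, the shortest read length of the libraries. Their reads can therefore not be fully told apart. The other 5 members share no stretch of 20 bases with any miRNA feature.

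Before the levels, the libraries were set against their labels. Total reads ran from 870481 to 6239008 in the 30 libraries of days 1 to 11, from 521066 to 815523 at day 25, from 1152390 to 25422978 in the AGO2 libraries and from 1734576 to 3435993 in the 4 PGC libraries. The libraries labelled "none" held 57155 reads in the control and 9830 in the Dnmt1 KO. Reads over Dnmt1 itself (18.1 to 64.3 RPM in Dnmt1 KO, 23.1 to 95.02 RPM in control libraries) are fragments over the whole gene in libraries of small RNA and do not check its deletion. Of the day 3 Dnmt1 KO libraries, replicate 1 stood apart from the other two, and of the day 25 control libraries, replicate 3, and results that changed without them are given in both ways. The libraries with the R1 suffix gave a summed level of the cluster between 1.01 and 1.04 times that of the unsuffixed library of the same name. Whether the 2 sets come from the same RNA is not given in the sources used here, and they were not counted as further replicates.

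In total small RNA of ESCs, the 7 members together took between 11.05% and 20.9% of all reads, with a median of 12.6% over 36 libraries. Expressed as a share of reads on miRNA features only, this was 18.9% to 36.1%, with a median of 22.2%. Mir295 was the most abundant member in each of the 36 libraries and accounted for 51.3% to 60.8% of the cluster's reads. Mir292 came next with 14.7% to 21.0%, followed by Mir293 with 8.64% to 18.6%, Mir291a with 6.28% to 9.49%, Mir294 with 1.92% to 4.87%, Mir291b with 1.08% to 2.79% and Mir290 with 0.408% to 0.682%. The order of the group means, the same per kilobase as in RPM, was Mir295, Mir292, Mir293, Mir291a, Mir294, Mir291b and Mir290 in 11 of the 12 groups of day and genotype. In day 3 Dnmt1 KO, Mir291b stood above Mir294. Neighbours in the order whose libraries overlapped in RPM were Mir293 and Mir291a in day 1 controls, and Mir292 and Mir293 as well as Mir291b and Mir294 in day 3 Dnmt1 KO. In all other groups, no neighbours overlapped in RPM.

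The summed level of every day 25 control library lay above that of every other library of the time course. In day 1 controls, it was 115767, 120955 and 122811 RPM, with a mean of 119844 ± 3651 RPM (SD, n = 3), and over the 15 control libraries of days 1 to 11 it ran from 110501 to 128558 RPM. In day 25 controls, it reached 175306, 203712 and 208803 RPM. In Dnmt1 KO cells, the sum was 127582, 128964 and 132059 RPM at day 1, and 136240, 136354 and 141175 RPM at day 25. The plot of levels by day shows each member beside the sum.

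**Figure D1:**
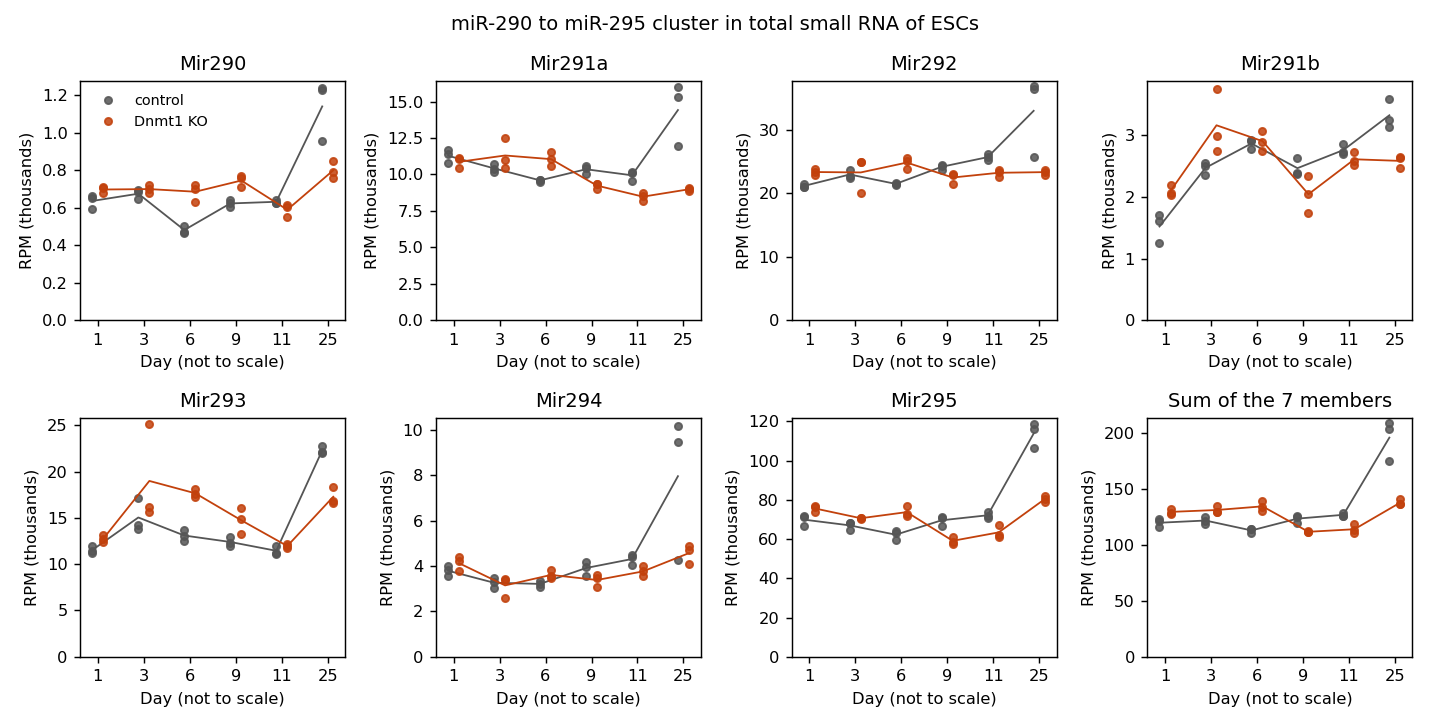
Level (in 1000 RPM) of each of the 7 members and of their sum in the 36 libraries of total small RNA, by day (days evenly spaced, not to scale) and genotype, where points are libraries and lines join the means of 3 libraries. The controls stand above the Dnmt1 KO libraries at day 25 in each panel except that of Mir294, where 1 control library at 4256 RPM lies among them. The share of all features without overlap at day 25 was not worked out.

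Differences between groups were tested with limma on log2(RPM + 1) after scaling for library composition. An adjusted p under 0.05 over all 2582 features tested is named a call, and differences are given as log2 values with their SE. All 7 members passed the filter on low values, as did 287 miRNA features in all. At day 25, all members were lower in Dnmt1 KO than in control cells and 5 of 7 were called. Over all features, 35.0% were called in either direction and 17.0% as lower. The median difference was -0.39 for the members, -0.20 for the tested miRNA features and -0.00 for all features tested.

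Mir295, whose 3p arm carries the shared AAGUGCU seed and which is the bulk of the cluster, was measured at 106576, 116026 and 118826 RPM in day 25 controls and at 78763, 80377 and 81998 RPM in Dnmt1 KO. The genotypes did not overlap, and the difference was -0.39 ± 0.08 (adjusted p = 8.35e-05). Mir291a, with the same seed, was at 11948, 15296 and 16021 RPM against 8866, 9004 and 9079 RPM, a difference of -0.56 ± 0.09 (adjusted p = 3.84e-06). Again, every control library was higher than every Dnmt1 KO library. For these and the other members, the share of all features without overlap at day 25 was not worked out.

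Mir294, the third member with that seed, was at 4256, 9480 and 10170 RPM in controls and at 4097, 4728 and 4900 RPM in Dnmt1 KO. Here the groups overlapped, because control replicate 3 fell among the Dnmt1 KO libraries, and the difference was -0.59 ± 0.16 (adjusted p = 0.00442). Without that library, it was -0.98 (adjusted p = 2.94e-09), and without it the differences of Mir290, Mir291a and Mir295 were -0.50, -0.68 and -0.43. Leaving out control replicate 1 or replicate 2 instead gave a median of the 7 members of -0.35 or -0.38, and 4 were called in each case. Mir292, the second most abundant member, was at 25714, 36385 and 36823 RPM in controls and at 22864, 23360 and 23717 RPM in Dnmt1 KO. The groups did not overlap, and the difference of -0.37 ± 0.10 (adjusted p = 0.00258) was -0.53 without control replicate 3.

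Mir290, the first hairpin of the cluster and its least abundant member, was at 955, 1228 and 1237 RPM in controls and at 758, 792 and 847 RPM in Dnmt1 KO, a difference of -0.39 ± 0.09 (adjusted p = 0.00111). Mir293 and Mir291b had the smallest differences. Mir293 was at 22030, 22149 and 22716 RPM in controls and at 16637, 16837 and 18384 RPM in Dnmt1 KO, without overlap. Its difference of -0.26 ± 0.11 (adjusted p = 0.0594) missed the threshold. With the replicate number as a block, a pairing that the data did not show, its adjusted p was 0.0265. Mir291b was at 3142, 3258 and 3587 RPM against 2469, 2635 and 2656 RPM, and its difference of -0.25 ± 0.10 had an adjusted p of 0.0588.

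The genotype difference at day 25 minus that at day 1 was tested as an interaction. It was negative for 7 of 7 members and called for 5 (Mir290, Mir291a, Mir292, Mir291b and Mir295), where 19.9% of all features were called in either direction and 10.2% as lower. It was -0.41 ± 0.11 for Mir295 (adjusted p = 0.00482) and -0.64 ± 0.15 for Mir291b (adjusted p = 0.00157), whose difference was 0.39 at day 1 and -0.25, not called, at day 25. It was -0.62 ± 0.23 for Mir294 (adjusted p = 0.0541) and -0.32 ± 0.15 for Mir293 (adjusted p = 0.150), which both missed the threshold. Without day 25 control replicate 3, Mir294 was called as well. Without day 25 control replicate 1 or replicate 2, the interaction was called for 2 members only, and without day 1 control replicate 3 for 3. With only the libraries compared in the fit, 3 members were called at day 25 and 3 for the interaction.

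Before day 25, between 0 and 2 members were called on a day, each as higher in Dnmt1 KO. Before scaling, the RPM of the cluster went both ways by day. Its sum was 129535 ± 2292 RPM in Dnmt1 KO against 119844 ± 3651 RPM in controls at day 1 and 134500 ± 4370 against 112968 ± 2137 RPM at day 6 (SD, n = 3). It was 111746 ± 670.0 against 123525 ± 3592 RPM at day 9 and 114050 ± 4023 against 126931 ± 1414 RPM at day 11. At day 3, it ran from 129152 to 134859 RPM in Dnmt1 KO and from 118457 to 125419 RPM in controls. The sums did not overlap on any of these days. The share of all features higher in Dnmt1 KO without overlap was not worked out for any day, so such separations have no background. Lower RPM in Dnmt1 KO without overlap was found for 22.8% of all features tested at day 9 and 24.6% at day 11. At day 1, 1 of 7 members was called, with 3.80% of all features called. This was Mir291b, whose 3p arm has the seed AAGUGCA, at 1249, 1612 and 1700 RPM in controls and at 2031, 2073 and 2192 RPM in Dnmt1 KO (difference 0.39 ± 0.10, adjusted p = 0.0259). The call was lost when any one of day 1 control replicate 3 and the 3 Dnmt1 KO libraries was left out. At day 3, 1 of 7 members was called against 6.24% of all features, again Mir291b, at 2353, 2508 and 2560 RPM against 2746, 2992 and 3759 RPM (difference 0.36 ± 0.10, adjusted p = 0.0278). Without Dnmt1 KO replicate 1, which stood apart at 25121 RPM for Mir293 beside 15644 and 16219 RPM in the other two, the difference of Mir291b was 0.21 (adjusted p = 0.439) and no member was called. The same held without day 3 control replicate 2, and 2 members were called without Dnmt1 KO replicate 2 or replicate 3.

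At days 6 and 9, the called members were Mir290 and Mir293, 2 of 7 on each day, with 23.0% and 18.4% of all features called. Mir290 was at 465.7, 471.97 and 503.9 RPM in day 6 controls and at 631, 702 and 722 RPM in Dnmt1 KO (difference 0.40 ± 0.09, adjusted p = 0.00133). At day 9, it was at 601, 623 and 643 RPM and at 711, 756 and 767 RPM (0.37 ± 0.09, adjusted p = 0.00339). The genotypes did not overlap on either day. Mir293, the member with the GUGCCGC seed, was at 12486, 13081 and 13728 RPM in day 6 controls and at 17274, 17591 and 18112 RPM in Dnmt1 KO (0.33 ± 0.11, adjusted p = 0.0226). At day 9, it was at 11968, 12343 and 12898 RPM and at 13272, 14885 and 16068 RPM (0.36 ± 0.11, adjusted p = 0.0137).

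The day 6 calls were lost when Dnmt1 KO replicate 3 was left out, and 1 was left without Dnmt1 KO replicate 1 or any one control library. At day 9, 1 call was left without Dnmt1 KO replicate 2 or replicate 3. The median difference of the members was 0.10 at day 6 and -0.05 at day 9, beside 0.14 and 0.09 over all features. At day 11, limma called 0 of 7 members, with 8.64% of all features called, and 0 had an unadjusted p under 0.05. The differences ran from -0.15 to 0.15, and the 95% interval of the difference was -0.26 to 0.05 for Mir295 and -0.45 to 0.22 for Mir294, the widest. Before composition scaling, Mir290, Mir291a, Mir292, Mir294 and Mir295 were lower in RPM in every Dnmt1 KO library than in any control library at day 11, as were 24.6% of all features tested. At day 9, the same held for Mir291a, Mir292, Mir291b and Mir295 and for 22.8% of all features. In a fit of miRNA features only, 6 members were called as lower at day 11 (Mir295 -0.44, adjusted p = 5.34e-08) and 4 at day 9 (Mir295 -0.35, adjusted p = 3.28e-06). There, the median was -0.40 for the members and -0.10 for all features of that fit at day 11, and -0.28 and 0.09 at day 9. The share of all features called in that fit was not worked out, so these counts have no background beside them.

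**Figure D2:**
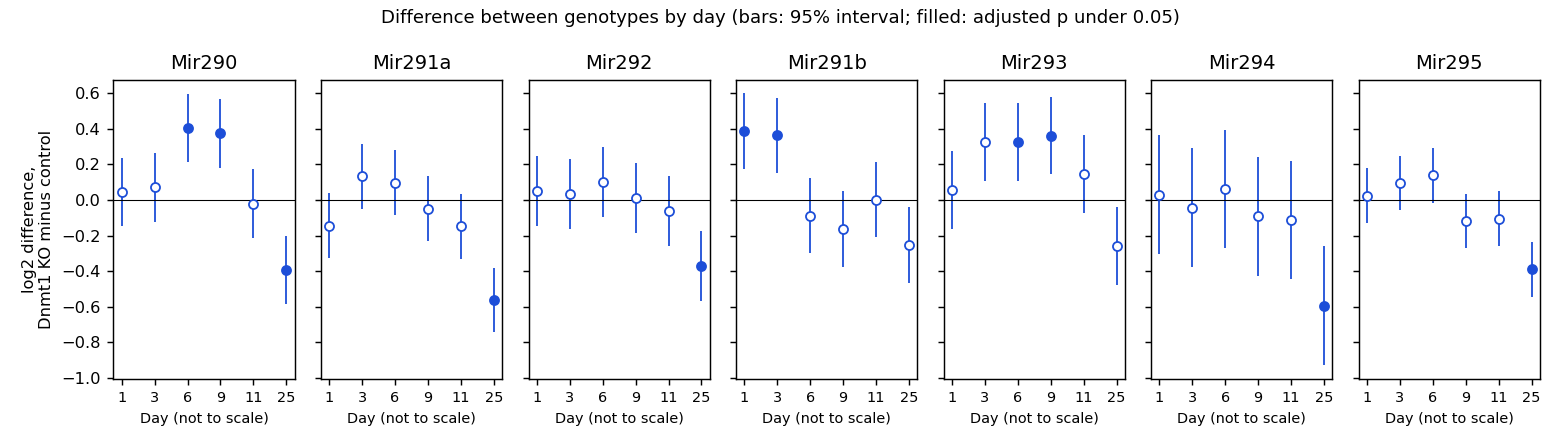
Log2 difference between Dnmt1 KO and control for each member by day, with bars for the 95% interval of limma's fit and filled points for an adjusted p under 0.05 over all features tested. Filled points lie above 0 for Mir291b at days 1 and 3 and for Mir290 and Mir293 at days 6 and 9, and below 0 at day 25 for Mir290, Mir291a, Mir292, Mir294 and Mir295.

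Within the controls, the members were higher at day 25 than at day 1, with 7 of 7 called as higher where 50.9% of all features were called in either direction and 22.8% as higher. The median difference was 0.70 for the members, -0.56 for the tested miRNA features and -0.04 for all features. Mir291b had the largest difference (1.01 ± 0.10, adjusted p = 1.14e-10), from 1249, 1612 and 1700 RPM to 3142, 3258 and 3587 RPM. For Mir295, it was 0.57 ± 0.08 (adjusted p = 3.96e-08), from 66885, 71315 and 71624 RPM at day 1. Mir291a had the smallest, at 0.21 ± 0.09 (adjusted p = 0.0497), from 10765, 11430 and 11658 RPM, and it is the one member whose sign was not kept, with -0.021 when no filter on low values was applied. Without day 25 control replicate 3, all 7 were called, with differences from 0.35 for Mir291a to 1.25 for Mir294. Without any one of day 1 control replicates 1, 2 and 3 and day 25 control replicates 1 and 2, 6 members were called.

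At day 11, 2 of 7 members differed from day 1 in controls, with 34.9% of all features called. Mir291b was at 2695, 2732 and 2863 RPM and again above its day 1 libraries (0.86 ± 0.10, adjusted p = 1.32e-08), and Mir292 was at 25220, 25698 and 26107 RPM beside 20968, 21018 and 21397 RPM at day 1 (0.27 ± 0.10, adjusted p = 0.0281). For Mir295, the day 11 libraries at 70680, 71947 and 73839 RPM and the day 1 libraries overlapped, and the difference was 0.03 ± 0.08. Without any one of replicates 1 and 2 of either day, 1 member was called.

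Each day 25 library was less deep than every earlier one, and lists of miRNAs of other cell types were lower there, neither of which can be told apart from the day. The feeder or fibroblast list, of which 8 of 9 names were in the table, summed to 20374 to 23148 RPM in day 1 controls and to 9398 to 10461 RPM in day 25 controls, and 7 of its 7 tested members were lower. Among these are Mir143 and Mir145, known from smooth muscle and fibroblasts, and Mir21. The list of differentiated cells, mostly let-7 miRNAs, with 9 of 16 names in the table, was at 1057 to 1088 RPM at day 1 and at 58.9 to 102 RPM at day 25 in controls, and 5 of 5 tested members were lower. Between these days, 50.9% of all features were called in either direction and 22.8% as higher. The median of the tested miRNA features was -0.56. In Dnmt1 KO at day 25, the sums of these lists were 7107 to 8257 RPM and 60.6 to 75.6 RPM. Of the 7 tested feeder or fibroblast members, 4 were called as higher and 3 as lower there, with Mir143 at 1231 RPM against 951 RPM in controls and Mir21, the bulk of the sum, at 6268 RPM against 8567 RPM. At day 9, they were 45185 to 51332 and 2437 to 2817 RPM in Dnmt1 KO, beside 23567 to 31277 and 1437 to 1864 RPM in controls. The part of these lists in the differences of the cluster was not tested, and in such bulk samples fewer cells of a type and less RNA per cell cannot be told apart.

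The 10 miRNAs outside the cluster that share or nearly share its seed were also followed. They are the miR-302 family, which is also known from pluripotent cells, and the miR-17, miR-20, miR-93 and miR-106 genes of the widely expressed miR-17 family. All 10 were tested. In Dnmt1 KO, 0 of them were called at day 1, 3 as lower at day 3, 10 at day 6, 10 at day 9, 6 at day 11 and 10 at day 25, and none was called as higher on any of these days. Of all features, 1.74% were called as lower at day 3, 9.33% at day 6, 6.12% at day 9, 2.36% at day 11 and, as above, 17.0% at day 25. Mir302b was at 60.5 to 79.6 RPM in day 9 controls and at 17.5 to 26.5 RPM in Dnmt1 KO (-1.52 ± 0.15, adjusted p = 1.55e-10). The 6 called at day 11 were the miR-17 family genes. No miR-302 gene was called then, and Mir302b had -0.15 ± 0.15. Within the controls, Mir302b was lower at day 11 than at day 1 (-2.94 ± 0.15). Mir93 was at 5694 to 6306 RPM in day 25 controls and at 1787 to 1931 RPM in Dnmt1 KO (-1.60 ± 0.08, adjusted p = 4.91e-21), and Mir20a fell on the same day by 0.93 ± 0.12 on the log2 scale. On day 9, no member of the cluster was called as lower, while on day 25 members of both sets were. Whether cluster and relatives differed from each other in their response was not tested.

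The members did not follow each other closely over the 12 group means. On the log2 scale, Pearson's r between members was highest for Mir294 and Mir295 at 0.90 and lowest for Mir291a and Mir291b at 0.022. Over the 10 group means without day 25, it was 0.47 for the first of these pairs and -0.66 for Mir293 and Mir294, the lowest of all pairs. Among 280 tested miRNA features outside the cluster, the 5 whose group means were most like the summed level were Mir744 (r = 0.85), Mir19b-1 (0.73), Mir1964 (0.72), Mir155 (0.71) and Mir877 (0.71). All 5 values rest on day 25, since without it they were 0.36, -0.20, 0.07, -0.17 and 0.38. The group means share depth and composition within a day, and no test was made of these values.

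As a share of all reads, the cluster was larger in AGO2-bound than in total small RNA. In control AGO2 libraries, the members together made up 23.4% ± 3.1 (SD, n = 4) of all reads, against 12.4% ± 0.4 (SD, n = 3) in day 9 total RNA. In Dnmt1 KO, it was 23.6% ± 3.8 (SD, n = 4) against 11.17% ± 0.07 (SD, n = 3). As a share of miRNA reads, the difference was smaller, with 23.6% ± 3.2 against 21.4% ± 0.7 in controls and 24.1% ± 3.9 against 19.1% ± 0.4 in Dnmt1 KO. By that measure, the 8 AGO2 libraries ran from 19.7% to 29.0%. The 15 control libraries of total RNA of days 1 to 11 ran from 19.9% to 22.9%, so these ranges overlapped. Within the cluster, Mir295 took 74.6% of AGO2-bound and 56.3% of total reads in controls, and 63.7% and 52.9% in Dnmt1 KO.

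In the fit of AGO2 against day 9 total RNA, 7 of 7 members were called as higher in each genotype, where 95.3% of 1564 features were called in controls and 94.8% in Dnmt1 KO, and 22.3% and 24.1% as higher. Composition scaling placed the median of all features at -2.43 and -2.40, so that a member's value is best read beside the median of the tested miRNA features, 1.65 and 1.79. Mir295 had 3.08 ± 0.20 in controls and 2.52 ± 0.20 in Dnmt1 KO. Mir291b (2.51 and 2.60), Mir291a (2.34 and 1.97), Mir293 (2.30 and 2.19) and Mir294 (2.08 and 2.06) also lay above the miRNA median. Mir292 (1.13 and 1.39) and Mir290 (1.08 and 1.28) lay below it. For both, the sign turned in controls under scaling to library totals (-0.63 and -0.68) and in both genotypes in a fit of miRNA features only (-0.66 and -0.70 in controls, -0.42 and -0.52 in Dnmt1 KO).

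Levels before scaling are given for the most abundant members. In controls, Mir295 was at 149604, 170483, 180357 and 195485 RPM in AGO2 and at 66839, 70741 and 71225 RPM in total RNA, without overlap. Mir292 was at 11693, 15234, 15869 and 20966 RPM in AGO2 and at 23700, 24318 and 24450 RPM in total RNA, lower in each AGO2 library. In Dnmt1 KO, Mir292 was at 23669, 24705, 24932 and 29762 RPM in AGO2 against 21451, 22855 and 23086 RPM, higher in each. These pairings follow the titles. If the genotype tags were right, each AGO2 group would belong beside the total RNA of the other genotype.

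The libraries labelled "none" held the cluster too, at a far lower depth. It had 11738 reads or 20.54% (95% Wilson interval 20.2% to 20.9%) of the control and 1025 reads or 10.4% (9.84% to 11.05%) of the Dnmt1 KO library, and Mir295 made up 65.4% and 63.8% of the cluster. Intervals cover counting error only. In the 8 AGO2 libraries, the cluster took 19.3% to 28.3% of all reads. The control "none" library lay within that range and the Dnmt1 KO one below it. With 1 library per genotype, no test was possible. The study's methods describe a negative control of beads without the AGO2 serum, and the labels do not say whether these libraries are that control.

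**Figure D3:**
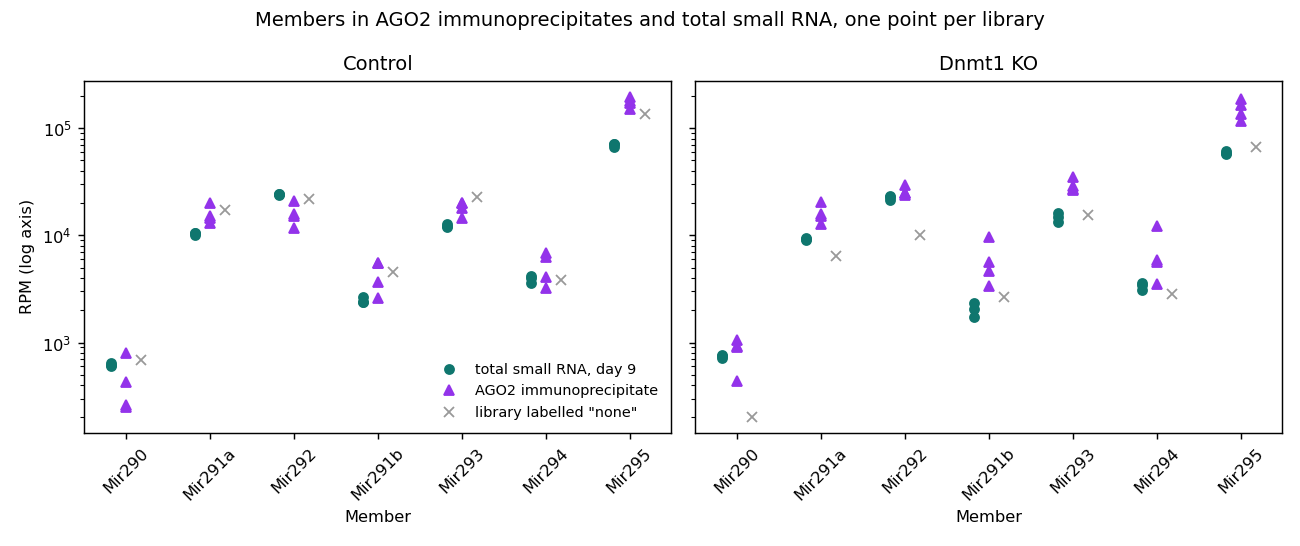
RPM of each member on a log axis in control (left) and Dnmt1 KO (right) libraries, 1 point per library, for total small RNA at day 9 (n = 3), AGO2 immunoprecipitates (n = 4) and the library labelled "none" (n = 1). Mir295 lies higher in every AGO2 library than in total RNA in both genotypes, whereas Mir292 lies lower in controls and higher in Dnmt1 KO, with genotypes as titled.

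Between genotypes as titled, AGO2-bound Mir292 and Mir293 were higher and Mir295 lower in Dnmt1 KO, with 3 of 7 members called where 36.4% of 456 features were called. Each sign would turn if the genotype tags were right. Of the 10 seed relatives, 4 were called as lower and 0 as higher here, beside 10 and 0 at day 9 in total RNA. Mir20b had -1.54 in AGO2 and -1.51 in day 9 total RNA, whereas Mir302b had 0.26 ± 0.87, not called, and -1.52. Which label is right was not tested. Mir293 was at 14493, 17909, 20030 and 20227 RPM in controls and at 26720, 27368, 28796 and 35060 RPM in Dnmt1 KO, without overlap (0.44 ± 0.11, adjusted p = 0.0153). Mir292, with values as above, did not overlap either (0.46 ± 0.13, adjusted p = 0.0233). For Mir295, the Dnmt1 KO libraries at 117744, 135949, 163638 and 186787 RPM overlapped the controls, and its difference of -0.48 ± 0.15 (adjusted p = 0.0322) was -0.22 (adjusted p = 0.306) under library totals. With the replicate numbers as a block, Mir290 was called in addition (0.77, adjusted p = 0.0443, against 0.152 without the block).

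These calls depended on scaling and on single libraries. For Mir292 and Mir293, the difference turned to -0.46 and -0.47 when no filter on low values was applied. No member was called without Dnmt1 KO replicate 2, 3 were called without control replicate 2, and 1 without any other library. Averaging the AGO2 libraries in pairs also left none. Depth differed between the genotypes, with 1152390, 1553877, 3373295 and 11520126 reads in Dnmt1 KO and 11497724 to 25422978 reads in controls. The part of depth in the differences was not tested. In these libraries, the feeder or fibroblast list was at 6533 to 16768 RPM in controls and 16415 to 31858 RPM in Dnmt1 KO, and its part in the differences was not tested.

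In PGCs, the cluster was present at a lower level. Its sum was 16937 RPM in E13.5 female, 24352 RPM in E13.5 male, 12176 RPM in E14.5 female and 12999 RPM in E14.5 male PGCs, or 1.22% to 2.44% of all reads and 3.25% to 4.38% of miRNA reads. The E14.5 libraries differed little from each other over miRNA features (chi-square per degree of freedom 1.43, against 113 or more for every other pair), so they are not read as separate evidence for each sex. The library with the R1 suffix labelled E14.5 male was more like the unsuffixed E13.5 male library (r = 0.993 on log2 values) than its E14.5 namesake (r = 0.984), with a sum of 22945 RPM. The other suffixed PGC libraries had 114631 and 60317 reads, and their sums were 8235 RPM for E13.5 female and 696 RPM for E13.5 male PGCs, far from their namesakes.

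Compared with the median of the 18 control ESC libraries, the sum in PGCs was 5.08 to 10.2 times lower, and members differed widely in this ratio. It was 2.99 to 5.10 for Mir291a, 3.15 to 6.11 for Mir292, 3.27 to 7.12 for Mir294, 3.69 to 8.65 for Mir293, 6.83 to 8.65 for Mir290 and 8.23 to 18.9 for Mir295. Mir291b was 209 to 626 times lower. At E13.5, it had 12 reads in females, or 4.26 RPM (95% Wilson interval 2.44 to 7.45), and 38 reads in males, or 12.8 RPM (9.298 to 17.5). At E14.5, it had 23 reads in females, or 6.69 RPM (4.46 to 10.0), and 17 reads in males, or 9.80 RPM (6.12 to 15.7). Every one of the 36 ESC libraries held it at 1249 RPM or more. The suffixed E14.5 male library held 18 reads of it (13.55 RPM), and the other suffixed PGC libraries held 0 reads, which allows up to 26.2 and 49.7 RPM (3 reads). Of the features with reads, 89.7% to 96.4% held an even number in these 3 libraries. If they count each fragment as 2 reads, both limits are too low.

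The make-up of the cluster in PGCs differed accordingly. Mir295 made up 30.7% to 35.3% of its reads and Mir292 30.9% to 34.6%, so that these 2 members were at similar levels, with Mir292 above Mir295 in RPM in all but the E13.5 male library and Mir295 above Mir292 per kilobase in each, the nearly identical E14.5 libraries included. Mir291a followed at 14.3% to 17.3%, Mir293 at 11.9% to 14.1%, Mir294 at 3.24% to 8.12% and Mir290 at 0.386% to 0.639%. Mir291b was the lowest at 0.0252% to 0.0754%. Without replicates, PGCs and ESCs were not compared by a test, and cell type, strain and culture cannot be told apart. Of the feeder or fibroblast list, PGC libraries held 5356 to 16923 RPM, the most in E13.5 female PGCs, where Mir10b made up 14563 RPM (3453 to 5429 RPM in the other libraries, 1565 RPM in day 1 controls). Mir143, in contrast, was at 540.2 to 788 RPM in PGCs and at 9691 RPM in day 1 controls. The PGC libraries held 254 to 479.5 RPM of the blood and endothelium list. Of the gonad soma list, Mir202 and Mir140, they held 1159 to 2180 RPM, beside 1258 to 1373 RPM in day 1 control ESCs. The miR-302 family with Mir367, the other pluripotent cell miRNAs, summed to 12.5 to 27.4 RPM in PGCs and in control ESCs to 969 to 1167 RPM at day 1, 365 to 516 RPM at day 9 and 95.6 to 139.8 RPM at day 11.

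**Figure D4:**
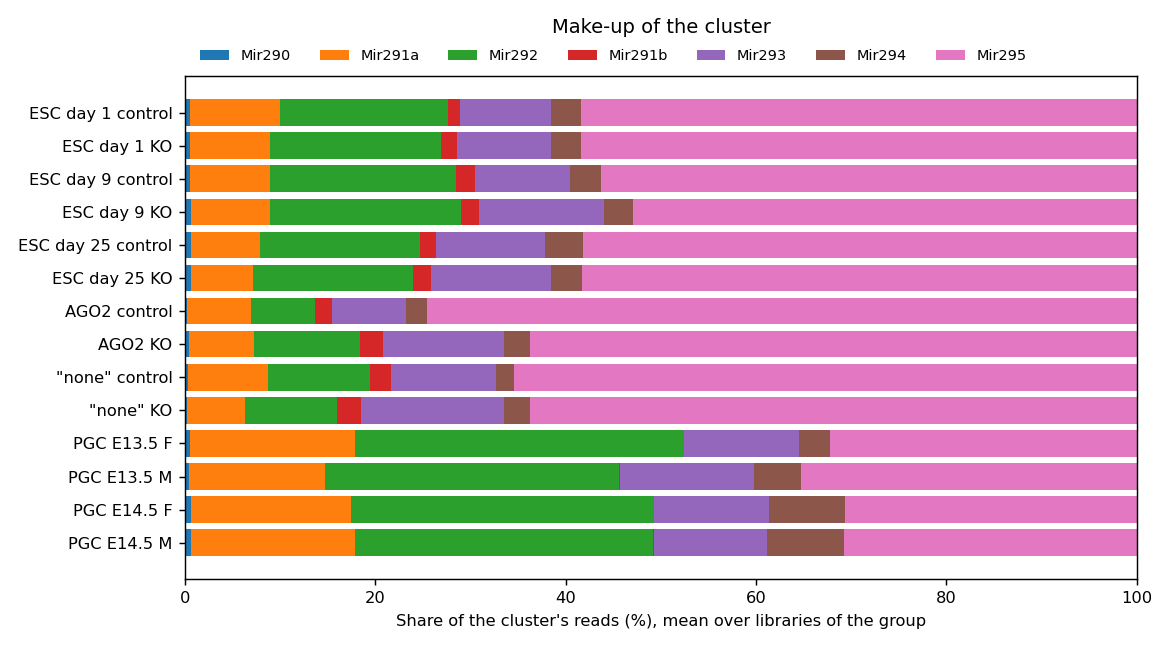
Share of the cluster's reads (in percent) that each member took, as stacked bars of the mean over the libraries of a group, for ESCs at days 1, 9 and 25, AGO2 immunoprecipitates (n = 4), libraries labelled "none" (n = 1) and PGCs (n = 1 each). Mir295 takes 74.6% in control AGO2 libraries and 30.7% to 35.3% in PGCs, where Mir291b is too small to see.

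**Figure D5:**
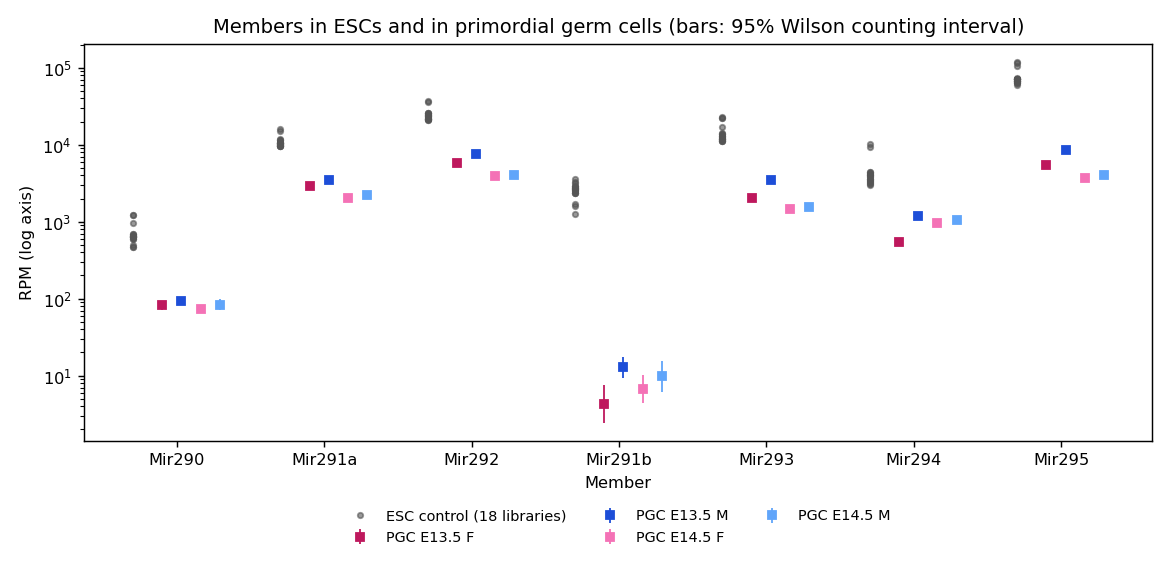
RPM of each member on a log axis in the 18 control ESC libraries (grey points) and in the 4 PGC libraries (squares, bars for 95% Wilson counting intervals). Mir291b lies between 4.26 and 12.8 RPM in PGCs and at 1249 RPM or more in ESCs, whereas no other member is more than 18.9 times lower than the ESC median.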

How the data were processed

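Small RNA libraries were made by the authors, reads of 20 to 24 nt were mapped to NCBIM37, and the deposited table gives RPKM per feature, as found from its values, since its name says counts. The submitters' processing notes list Trim Galore 0.3.5 and Bowtie2 2.2.9. Whether counting used strand is not given in the sources used here. RPKM values were turned into RPM by the feature's span. All low values were whole multiples of 1 step per library (within 5% of the step), which gave reads and totals. Groups follow the titles, since the genotype tags contradict them in the AGO2, "none" and R1-suffixed day 1 to 9 libraries.

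Features with at least 10 RPM in 3 libraries were kept, scaled by weighted trimmed means of log ratios (30% and 5% trimmed), and tested with limma 3.58.1 in R 4.3.3 (trend, Benjamini-Hochberg adjustment over all features) on log2(RPM + 1). Such a fold change understates the change of low features. The time course was 1 fit of 36 libraries, and AGO2 libraries were fitted alone and with day 9. As the values are not counts, the count test of the study's methods was not used. Checked on data simulated for days 1 and 25 with 1 spread for every feature, the fit recovered the changes put in. At day 25, however, it made more false calls among low features than voom. Real replicates differ in spread between groups, so the check cannot vouch for single calls. Alternatives were library totals, median-ratio factors, a pseudocount of 5, other filters, voom, miRNA features only, fewer libraries and leaving out each library. All 7 members are named, with seed relatives, the 5 most alike miRNAs and features within 10 kb. Members, lists and this rule were chosen with earlier results of these data known. By the rule that every same-numbered pair correlates above 0.1, replicate numbers paired the AGO2 libraries (deviations 0.19 to 0.39), although the highest correlations with another number were as high (0.22 to 0.39), but not the time course (-0.07 to 0.05).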

Additional observations from a re-analysis of the deposited data

Results flagged for a closer look

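The difference between Dnmt1 KO and control differed between day 25 and day 1 by the interaction test of limma, adjusted over all features, for 5 members. The day 25 difference minus the day 1 difference on the log2 scale was -0.44 for Mir290, -0.42 for Mir291a, -0.42 for Mir292, -0.64 for Mir291b and -0.41 for Mir295, with 3 libraries per group. For the other 2 members, the values had the same sign and missed the threshold. In the AGO2 groups of 4 libraries, no member and no sum stood out by Dixon's test, of 16 groups tested, where chance alone marks about 1 in 20.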

How the results depend on the processing

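At day 25 and for the interaction of genotype with day, all 7 members kept a negative sign under each alternative run, single libraries left out included. The number of members called moved more than 1.5 times from the reported count as follows. With no filter on low values, it was 0 at days 1, 3, 6 and 9. At day 3, it was 2 with median-ratio factors, a pseudocount of 5, at least 10 reads in every library, voom or the replicate block, and 0 with only the libraries compared or the R1-suffixed libraries. At day 6, it was 1 with median-ratio factors, and at day 9, 1 with the R1-suffixed libraries. With miRNA features only, it was 4 at day 9, 6 at day 11, 6 for control day 11 against day 1, 1 between genotypes in AGO2, 4 for AGO2 against total RNA in controls and 3 in Dnmt1 KO. With only the libraries compared, it was 3 at day 25 and 3 for the interaction. In AGO2 between genotypes, it was 1 with median-ratio factors, 1 with at least 10 reads and 0 with libraries averaged in pairs, and for AGO2 against total RNA with at least 10 reads, 4 in controls and 3 in Dnmt1 KO. Scaling to library totals or fitting miRNA features only gave 7 at day 25. The share of all features called was not worked out for these alternatives.

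Leaving out single libraries gave 0 to 1 members called at day 1, 0 to 2 at day 3, 0 to 2 at day 6, 1 to 2 at day 9, 0 to 0 at day 11, 4 to 6 at day 25, 2 to 6 for the interaction, 1 to 2 for control day 11 and 6 to 7 for control day 25 against day 1, 0 to 3 for AGO2 between genotypes and 7 to 7 for AGO2 against total RNA in each genotype. The replicate block gave 6 calls at day 25, 6 for the interaction and 4 in AGO2, and numbers in the time course did not pair the libraries.

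Signs of single members turned in 81 of 1358 values, of which 63 were called in neither fit. Among these are 3 members in AGO2 between genotypes without a filter, where all 7 were then below 0, and with miRNA features only 4 members at day 6 and 3 at day 3. The other 18, called in at least 1 of the fits compared, follow, and the cause was not tested. In "Dnmt1 KO vs control, day 3, Mir295" it was -0.15 with miRNA features only, in "Dnmt1 KO vs control, day 9, Mir292" -0.22 and in "Dnmt1 KO vs control, day 11, Mir291b" -0.34. In "Control, day 11 vs day 1, Mir290" it was 0.30 and in "Control, day 11 vs day 1, Mir293" 0.29 with the same setting, and in "Control, day 25 vs day 1, Mir291a" -0.021 without a filter. In "AGO2 immunoprecipitates, Dnmt1 KO vs control, Mir292" it was -0.46 and in "AGO2 immunoprecipitates, Dnmt1 KO vs control, Mir293" -0.47 without a filter. In "AGO2 vs total, control, day 9, Mir290" it was -0.68 with library totals, -0.90 with at least 10 reads and -0.70 with miRNA features only, and in "AGO2 vs total, control, day 9, Mir292" -0.63, -0.86 and -0.66. In "AGO2 vs total, Dnmt1 KO, day 9, Mir290" it was -0.33 and -0.52 with the last 2 settings, and in "AGO2 vs total, Dnmt1 KO, day 9, Mir292" -0.23 and -0.42. Mir291b in PGCs rests on 12 to 38 reads.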
